A study of Homo sapiens with 3 samples.

Results

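The cytosolic ribosomal protein genes were examined in KYSE140 after knockdown of the homeobox gene DLX5 by siRNA. KYSE140 is a human tumour line, derived from squamous carcinoma of the esophagus. Members were chosen by symbol, as RPL or RPS followed by a number, together with RPSA, RPLP0, RPLP1 and RPLP2. The rule found 86 of 17219 genes with a value, 52 of the large and 34 of the small ribosomal subunit, and 82 of them reached 1 FPKM in at least 1 sample and were tested. The series holds 1 sample with a negative control, whose reagent the labels do not describe, 1 sample with siRNA1 and 1 with siRNA2 against DLX5. All 3 are the same line, grown with serum, and no genetic change or other agent is labelled. FPKM values are fragment counts divided by transcript length and by the depth of the library. Each sample has 2 replicate columns that carry no label of separate cultures, so n = 1 value per sample, and an SD below is the spread over those 2 columns, which may be technical. The design text speaks of retina and of triplicates, which the sample labels do not show.

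A ribosome is built from a small subunit, which reads the mRNA, and a large subunit, which joins the amino acids. Each core ribosomal protein is normally present in a single copy per subunit, apart from the stalk proteins of the large subunit. Most of their mRNAs begin with a C followed by a run of pyrimidines, the 5′ terminal oligopyrimidine (TOP) sequence, through which mTORC1 and LARP1 control how much of the mRNA is translated. RNA levels as measured here do not show that translation. In squamous carcinoma cells, as in other dividing cells, these mRNAs are among the most abundant.

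The starts of the genes on which the results turn are shown to set the usual TOP start beside members with none at the listed start base. Each line gives 20 bases before and 20 bases from the transcription start in RefSeq (GRCh38.p14), on the gene's own strand, with the C and the pyrimidines that follow it at the start in capitals. The first 8 are TOP starts.

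RPS6: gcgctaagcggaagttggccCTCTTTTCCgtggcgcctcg

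RPL41: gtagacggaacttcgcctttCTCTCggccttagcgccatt

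RPLP0: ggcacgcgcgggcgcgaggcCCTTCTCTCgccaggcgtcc

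RPL11: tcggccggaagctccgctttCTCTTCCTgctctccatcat

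RPS9: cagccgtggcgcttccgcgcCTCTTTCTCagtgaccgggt

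RPL29: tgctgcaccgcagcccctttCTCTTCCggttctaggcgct

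RPL26: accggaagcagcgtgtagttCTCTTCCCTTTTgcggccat

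RPS27: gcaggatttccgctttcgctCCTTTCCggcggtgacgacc

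The next 5 have no TOP start at the listed base. RPS7 has one within 5 bases of it, and RPL26L1 and RPS27L are the copies that resemble RPL26 and RPS27.

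RPS7: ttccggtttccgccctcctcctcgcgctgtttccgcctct

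RPS26: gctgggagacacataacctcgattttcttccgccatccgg

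RPL26L1, first start: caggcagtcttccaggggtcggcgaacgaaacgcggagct

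RPL26L1, second start: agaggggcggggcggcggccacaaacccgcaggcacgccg

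RPS27L: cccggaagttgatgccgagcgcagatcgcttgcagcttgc

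On GRCh38.p14 the window of RPL11 is chr1:23691786-23691825 on the plus strand, that of RPL26 chr17:8383174-8383213 on the minus strand, and those of RPL26L1 chr5:172958709-172958748 and chr5:172958860-172958899 on the plus strand. RPS7 lies at chr2:3575240-3575279 and RPS26 at chr12:56041898-56041937, both on the plus strand. RPL11 has a further start in the table, upstream of the one shown, with no TOP sequence. A TOP start was searched as a C at the listed start followed by at least 4 bases that are each C or T, on the gene's strand. Of 69 members with an entry, 48 (69.6%) had such a start, against 5.14% of all 27305 genes of the table and 7.06% of 9886 other genes tested for expression. With a start allowed within 5 bases, the shares were 79.7%, 25.2% and 29.2%. Among 62 core members, 46 had the TOP start, and among 7 entries of the copies named under the paralogs below, 2 did.

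DLX5, the targeted gene, read 13.0 FPKM in the control, 3.63 with siRNA1 and 3.25 with siRNA2, so it was lower in both samples labelled as knockdowns (limma, adjusted p = 0.0210). The spacing of low FPKM values put the depth at 17250000 to 17800000 reads per replicate column. All 9 squamous epithelial markers were at 1 FPKM or more in the control, against 1 of 6 fibroblast, 3 of 5 leukocyte and none of 3 endothelial markers. The summed FPKM of the squamous markers was 10560 in the control, 4191 with siRNA1 and 4105 with siRNA2, which is 2.47%, 0.970% and 0.964% of all FPKM. Since FPKM is a share of the library, such a loss raises the share of every other gene, and its part in the small shifts below was not tested.

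The core ribosomal protein genes were among the highest of the transcriptome in every sample. Leaving out 9 members that are copies of others, the 77 core genes had a median of 829 FPKM in the control, against 11.4 FPKM over all tested genes, and 58 of the 100 highest genes of the control were core members. The 46 large subunit genes had a median of 834 FPKM and the 31 small subunit genes 826 FPKM. Summed over all members, the large subunit held 41342, 44302 and 41537 FPKM in control, siRNA1 and siRNA2, and the small subunit 29273, 31803 and 29792 FPKM. The ratio of large to small was 1.41, 1.39 and 1.39. Over the replicate columns it was 1.411 and 1.413 in the control and between 1.383 and 1.405 with the siRNAs, so both control columns lay above the others by a narrow margin.

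**Figure D1:**
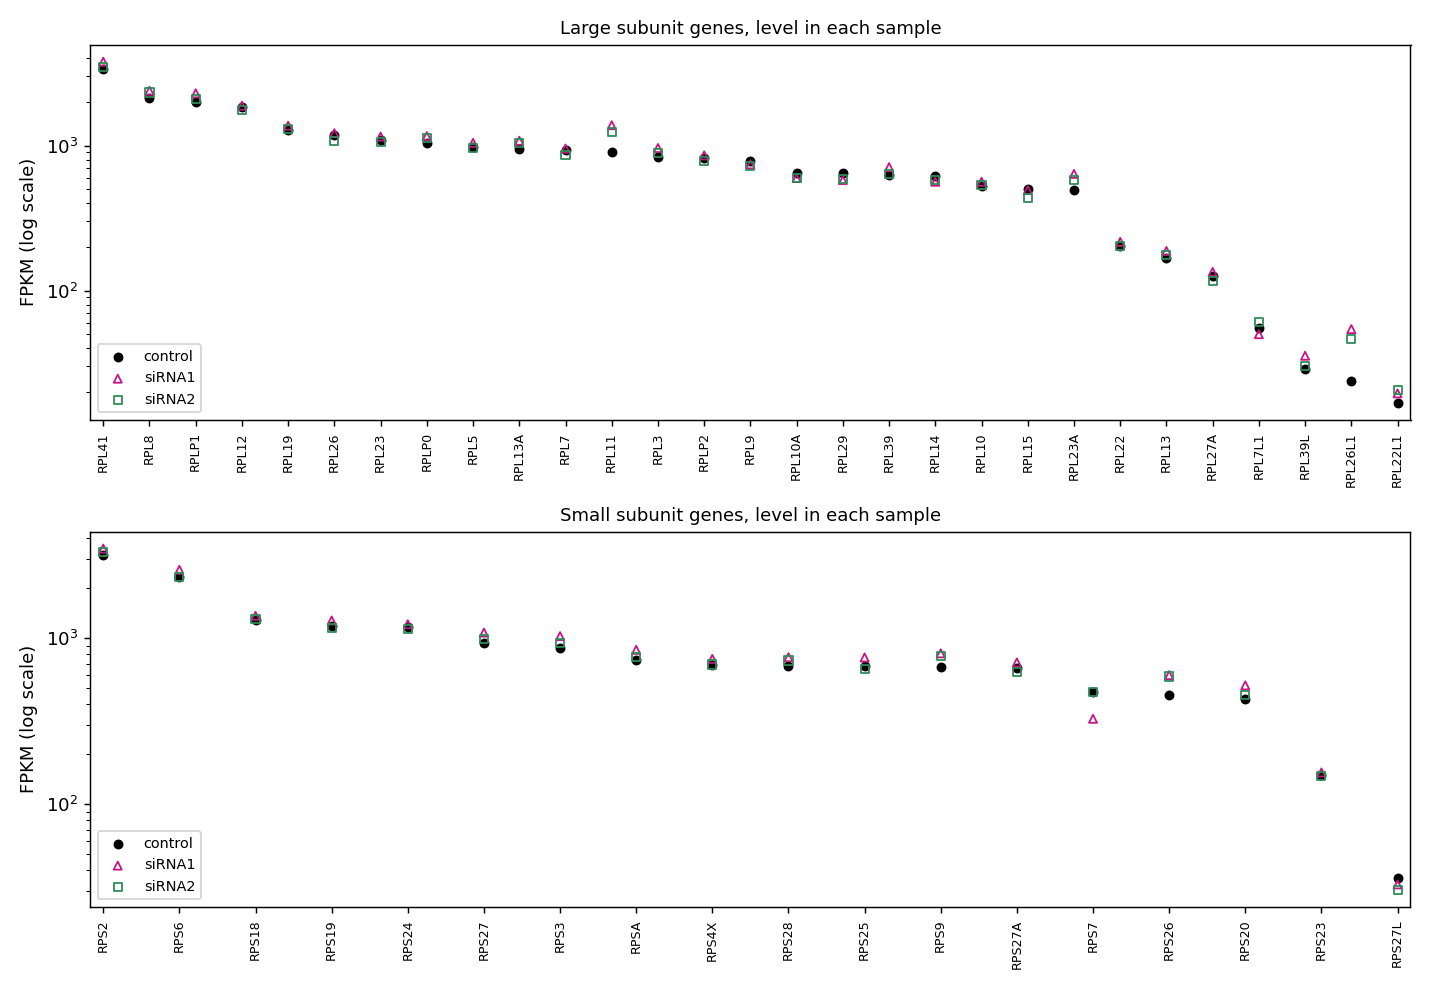
FPKM on a log scale of 47 of the 82 tested members in the control (filled circles), with siRNA1 (triangles) and with siRNA2 (squares), ordered by the control. Most genes show the 3 symbols on top of each other, and RPL26L1, RPL11, RPS26 and RPS7 show a sample that stands apart.

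In the large subunit the highest gene was RPL41, which encodes a very short, strongly basic protein, at 3372 ± 1.60 FPKM in the control, 3797 ± 219 with siRNA1 and 3495 ± 169 with siRNA2. RPL8 followed at 2140 FPKM, 2391 and 2326, and the stalk gene RPLP1 at 2001, 2298 and 2089 FPKM. RPL12, at the base of the stalk, read 1846, 1886 and 1773 FPKM, and RPL19 read 1291, 1373 and 1300 FPKM. These 5 levels kept their order in all 3 samples. In the small subunit RPS2 stood highest at 3147 ± 26.5 FPKM, 3460 ± 122 and 3298 ± 1.35. RPS6, the substrate of the S6 kinases, read 2346 ± 2.29 FPKM, 2577 ± 43.1 and 2338 ± 74.3. RPS18 read 1287, 1362 and 1303 FPKM. These 3 kept their order in all 3 samples too.

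At the low end of the core stood RPL27A at 126 FPKM, RPS23 at 149 and RPL13 at 167 in the control. These are genes for which the deposited table lists a long transcript, of 4879, 3314 and 4672 bases. The 13 core members with a longest transcript over 1500 bases had a median of 370.3 FPKM in the control against 901 FPKM for the other core members. Over the 77 core genes, Spearman's rho between mean FPKM and longest transcript was -0.33, a description across genes that are not independent and share the same libraries. RPS24 went the other way, with 2815 bases and 1167 FPKM. The transcript length behind each FPKM value is not given, and its part in the range among genes whose proteins sit in the same particle was not tested.

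**Figure D2:**
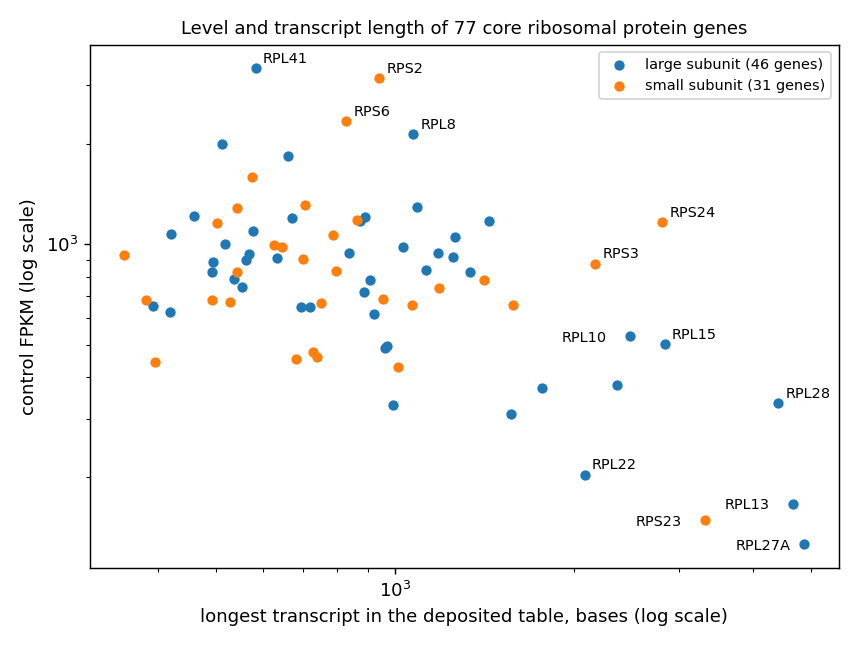
Control FPKM against the longest transcript that the deposited table lists, both on log scales, for 77 core members, large subunit in blue and small subunit in orange. RPL27A, RPL13 and RPS23 lie at the lower right, and RPL41 and RPS2 at the top left.

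The first question was which members differed from the control with DLX5 siRNA. RPL26L1, a copy of RPL26 expressed at a low level, rose with both siRNAs, and it was the only member past the test (limma on log2(FPKM + 1), Benjamini-Hochberg adjusted p under 0.05 over 12078 genes). That is 1 of 82 members higher and 0 lower, where 1.42% of all tested genes were higher and 1.67% lower. At an unadjusted p under 0.05, 4 members were higher (4.88%) and 0 lower, where 9.45% of all tested genes were higher and 10.1% lower. The test has 1 residual degree of freedom per gene, and it takes the single control to vary as the 2 siRNA samples do.

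By size alone, the shares of members past 1.2-fold lay below those of all tested genes, with no test of that difference. With siRNA1, 7 of 82 were at least 1.2-fold higher on the log2(FPKM + 1) scale, against 22.7% of all tested genes, namely RPL11, RPL23A, RPL26L1, RPL39L, RPS20, RPS26 and RPS9. RPS7 alone was at least 1.2-fold lower with siRNA1, where 22.7% of all genes were. With siRNA2, 4 members were at least 1.2-fold higher, RPL11, RPL22L1, RPL26L1 and RPS26, against 18.6% of all genes, and none was lower, against 19.3%. Within 1.1-fold of the control lay 64.6% of members with siRNA1 and 87.8% with siRNA2, beside 31.6% and 37.7% of all tested genes. The middle 50% of members spanned 0.13 on the log2 scale with siRNA1 and 0.12 with siRNA2, beside 0.47 and 0.39 for all genes. Depth differs between these sets, since most tested genes have far fewer reads: the 38 core members with a single listed transcript had 6069 to 113736 estimated reads per sample, where counting error is 1.28% or less. The SD between replicate columns of core members was larger at the median. It was 1.42% of the level in the control, 2.70% with siRNA1 and 2.14% with siRNA2.

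**Figure D3:**
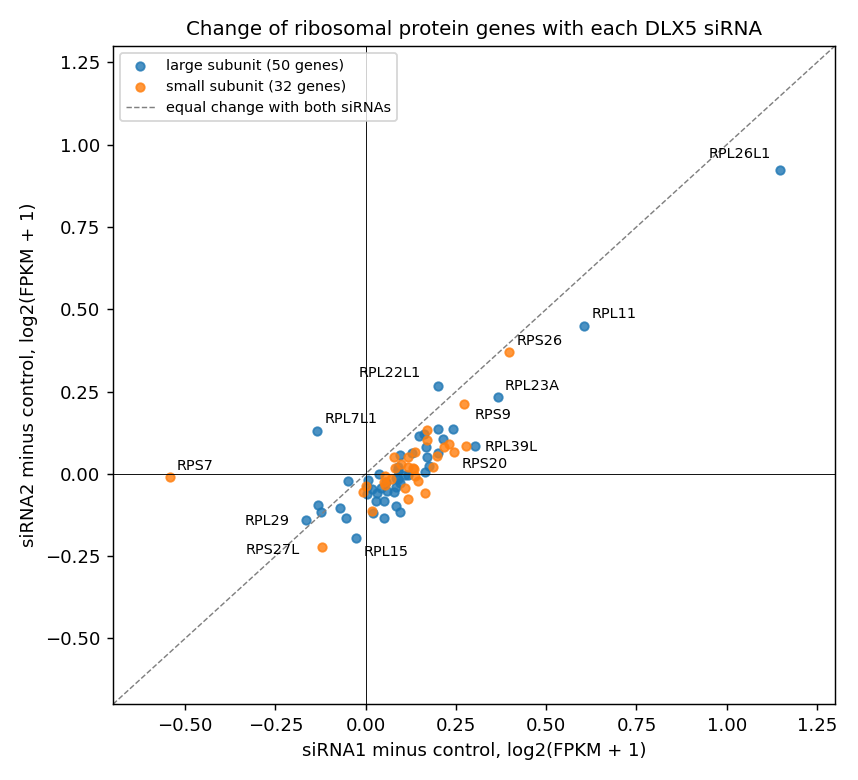
Difference from the control in log2(FPKM + 1) with siRNA1 (x axis) and with siRNA2 (y axis) for 82 tested members, each a point, large subunit in blue and small in orange, with the dashed line where both are equal. Both axes share the single control sample. RPL26L1 and RPL11 lie at the upper right, RPS7 is low on the x axis alone, and most points lie just below the dashed line.

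RPL26L1 (chr5:172385732-172396774, plus strand, hg19) read 23.9 ± 0.0566 FPKM in the control, 54.2 ± 0.495 with siRNA1 and 46.1 ± 0.0990 with siRNA2. The replicate columns of the 3 samples did not overlap. It was 2.27-fold and 1.93-fold higher than the control, a log2 fold change of 1.04 ± 0.17 (SE, limma, adjusted p = 0.0364). With no filter on low FPKM it did not pass (adjusted p = 0.320), nor after quantile normalization (adjusted p = 0.0754), where the log2 fold changes were 1.04 and 1.01. RPL26 itself, which lies by the exit of the nascent peptide, read 1176 FPKM, 1219 and 1071. RPL26L1 thus made up 1.99%, 4.26% and 4.13% of the summed FPKM of both. The sources used here do not give how reads that match both genes were shared, so the level of RPL26L1 and these shares are uncertain.

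RPL11, which binds the 5S rRNA together with RPL5 and can bind the p53 regulator MDM2 when ribosome assembly is disturbed, had the largest difference of a core member. It read 909 ± 3.07 FPKM in the control, 1384 ± 53.0 with siRNA1 and 1243 ± 66.1 with siRNA2 (chr1:24018269-24022915, plus strand, hg19). Both columns of both siRNA samples lay above those of the control. The ratios were 1.52 and 1.37, and the log2 fold change of 0.53 ± 0.12 did not pass (limma, adjusted p = 0.0793). RPL5, its partner, read 985 FPKM, 1045 and 958, with siRNA1 above and siRNA2 below the control. RPL23, which can bind MDM2 too, read 1094 FPKM, 1155 and 1053.

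RPS26, a small subunit protein at the mRNA exit whose loss causes Diamond-Blackfan anemia, read 454 ± 9.64 FPKM in the control, 598 ± 22.3 with siRNA1 and 586 ± 7.78 with siRNA2. It stood 1.32-fold and 1.29-fold above the control, the siRNA samples overlapping each other and not the control (adjusted p = 0.139, limma). RPL23A, a protein near the peptide exit, read 495 ± 2.93 FPKM, 638 ± 6.88 and 582 ± 16.2 (adjusted p = 0.252). RPS9 read 669 ± 1.90 FPKM, 809 ± 3.38 and 775 ± 2.26 (adjusted p = 0.312). For both genes all columns of the siRNA samples were above the control. RPS26 has 30 and RPL23A 91 processed or other pseudogenes that carry its name in GENCODE release 29, so reads may be split between near-identical copies and these levels are uncertain. RPL13A read 941 FPKM, 1081 and 1035, RPS28 682 FPKM, 767 and 732, and RPS3 875 FPKM, 1027 and 931, none past the test (adjusted p from 0.464 to 0.571).

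**Figure D4:**
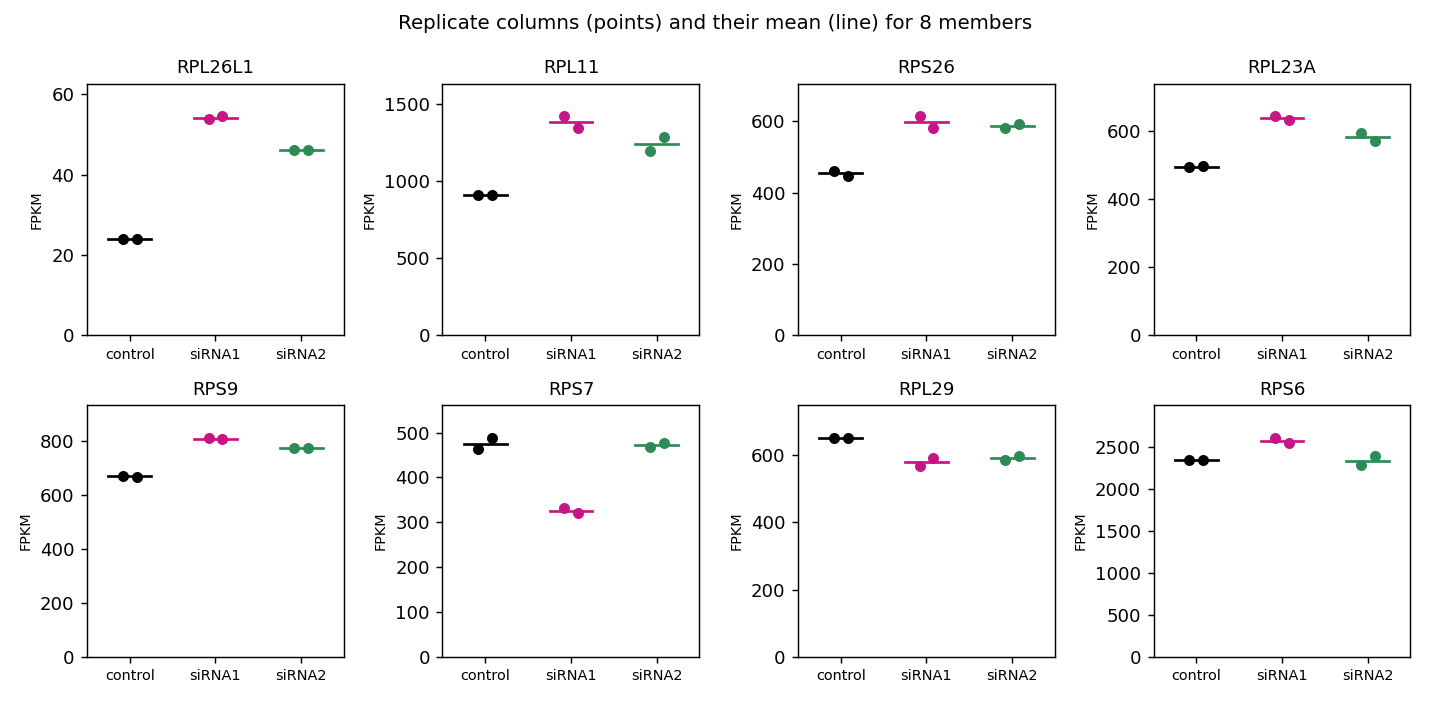
FPKM of 8 members in each replicate column (points) with the mean of each sample (line), on axes that start at 0. The siRNA columns of RPL26L1, RPL11, RPS26, RPL23A and RPS9 lie above the control, those of RPL29 below it, and RPS7 is low with siRNA1 alone.

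Lower values in both siRNA samples were small. RPL29 read 649.9 ± 0.0141 FPKM in the control, 579 ± 15.8 with siRNA1 and 590.0 ± 8.67 with siRNA2, a log2 fold change of -0.15 ± 0.11 (SE, limma, adjusted p = 0.524). RPL10A read 650.1 FPKM, 597 and 600.0, and RPL14 read 618 FPKM, 563 and 578. RPL9 read 780.4 FPKM, 742 and 727. No member of the core was lower by the test.

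RPS7 (chr2:3622853-3628509, plus strand, hg19) was the 1 member that lay 1.2-fold or more below the control. This small subunit protein takes part in processing of the small rRNA. It read 464 and 488 FPKM in the columns of the control, 331 and 321 with siRNA1, and 467 and 478 with siRNA2. The siRNA1 columns lay below all others, and those of siRNA2 lay within the control's range. With siRNA1 RPS7 was 1.46-fold lower, and with siRNA2 1.01-fold. It did not pass the test, in which the spread comes in part from how the siRNA samples differ (limma, log2 fold change -0.28 ± 0.22, adjusted p = 0.553). The samples held an estimated 11945, 8287 and 12123 reads of it. With the replicate columns as separate values, siRNA1 was lower than siRNA2 by -0.53 ± 0.037 (log2 difference, SE, limma, adjusted p = 4.38e-06), a p that measures only the spread within samples. In the authors' deposited table the log2 fold change of RPS7 is -0.54 with siRNA1 and -0.01 with siRNA2.

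Most members were slightly higher with siRNA1 than with siRNA2. The level with siRNA1 was above that with siRNA2 in 75 of 82 members (91.5%), beside 53.3% of all tested genes. With the replicate columns as separate values, 34 members were higher and 2 lower in siRNA1 than in siRNA2 at an adjusted p under 0.05 (limma, spread within samples only), where 21.1% of all genes were higher and 19.4% lower. The largest differences of the higher ones were 0.23 for RPL26L1, 0.22 for RPS25 and 0.22 for RPL39L on the log2 scale. RPS7 and RPL7L1 were the 2 lower ones. RPL7L1, which resembles RPL7, read 54.9 FPKM in the control, 49.95 with siRNA1 and 60.2 with siRNA2. RPL15, an early-binding protein of the large subunit, read 502 FPKM, 493 and 438, low with siRNA2 alone.

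Large and small subunit genes shared this pattern. The median log2 difference from the control was 0.087 for 50 large subunit genes and 0.12 for 32 small subunit genes with siRNA1, and -0.015 and 0.018 with siRNA2. Over all tested genes it was 0.027 with siRNA1 and 0.011 with siRNA2. Large minus small was -0.038 with siRNA1 and -0.033 with siRNA2. Column by column, small stood above large by 0.049 and 0.048 with siRNA1 and by 0.036 and 0.021 with siRNA2 on the log2 scale. All siRNA columns are set against the same control sample, so their shared sign is not independent. The middle 50% of large subunit genes spanned 0.14 with siRNA1 and 0.12 with siRNA2, and of small subunit genes 0.11 and 0.096. The control columns are centred on their own mean and so give no such direction, and they differed from 0 by 0.0041 in size. With 3 samples no exact permutation test can go below p = 0.333, so no test of subunits is given.

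**Figure D5:**
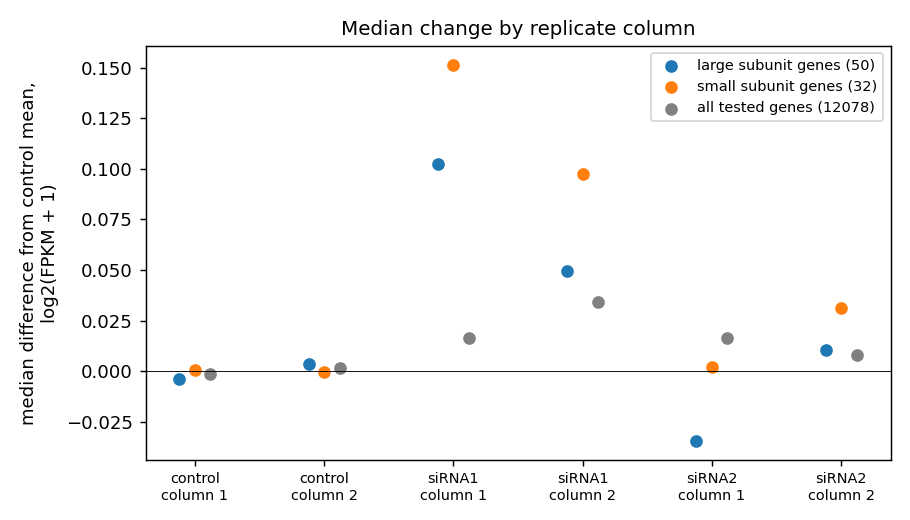
Median difference from the control mean in log2(FPKM + 1) for large subunit genes (blue), small subunit genes (orange) and all tested genes (grey) in each of the 6 replicate columns. Both siRNA1 columns have small subunit medians of 0.098 and 0.15, above those of siRNA2 at 0.0019 and 0.031.

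After quantile normalization the median of all members with siRNA2 was 0.051 in place of -0.0040, so the direction with siRNA2 depends on the scaling, and with siRNA1 it was 0.085 in place of 0.095. The sum over members was 70615 FPKM in the control, 76105 with siRNA1 and 71329 with siRNA2, that is 16.5%, 17.6% and 16.8% of all FPKM. Its columns were 70462 and 70768 in the control, 76946 and 75264 with siRNA1, and 70610 and 72048 with siRNA2. Only siRNA1 lay outside the control's range in both columns. In RNA from a whole culture, less RNA per cell and fewer cells of a kind cannot be told apart, and total RNA per cell was not measured.

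Members with other known roles differed from the control by small amounts. Of the stalk genes, which recruit elongation factors, RPLP0 read 1050.3 FPKM in the control, 1163 with siRNA1 and 1136 with siRNA2, and RPLP2 827, 856 and 781 FPKM. RPSA, also known as the laminin receptor, read 741 FPKM, 849 and 769. RPS19, the gene most often mutated in Diamond-Blackfan anemia, read 1184 FPKM, 1276 and 1149.9, and RPS27A, made as a fusion with ubiquitin, 658 FPKM, 713 and 624. None passed limma, with adjusted p from 0.567 to 0.957 over these 5. RPS20 read 428 FPKM, 519 and 454, which is 1.21-fold higher with siRNA1 and 1.06-fold with siRNA2. RPS25, needed by some viral entry sites for translation, read 681 FPKM, 764 and 654.

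The copies of ribosomal protein genes were low beside their partners. RPL22L1 read 16.8 FPKM in the control, 19.5 with siRNA1 and 20.4 with siRNA2, which was 7.63%, 8.26% and 9.21% of its sum with RPL22 (204, 217 and 202 FPKM). RPL39L, best known from the testis, read 28.5 FPKM, 35.5 and 30.3 beside RPL39 at 629, 710.3 and 639. RPS27L, a p53-inducible copy, read 35.7 ± 1.28 FPKM, 32.7 ± 3.35 and 30.5 ± 1.66 and made up 3.71%, 2.94% and 3.01% of its sum with RPS27, at 928, 1079 and 981 FPKM. None of the 3 passed the test (adjusted p from 0.486 to 0.60). RPL7, the partner of RPL7L1, read 939.99 FPKM, 954 and 866, and RPL3 read 829, 963 and 893 FPKM beside RPL3L. The 4 untested members were RPL3L, a muscle gene, at 0.405, 0.33 and 0.365 FPKM, RPL10L, a testis gene, at 0.0350 FPKM in each sample, and RPS4Y1 and RPS4Y2, listed at 0 in the control and with siRNA1 and at 0.0300 and 0.0350 FPKM with siRNA2. RPL10 and RPS4X, their partners, read 529.7 and 684 FPKM in the control.

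The core members were then grouped by start sequence and by the snoRNA genes they hold. The 46 core members with a TOP start had a median log2 difference of 0.10 with siRNA1 and -0.0040 with siRNA2. The 16 without one at the listed base had 0.070 and 0.00035, and they include RPS26 and RPS7. With a start allowed within 5 bases, 53 of the 62 core members have a TOP start, RPS7 among them. The group of 16 is thus not a group of genes that all lack a TOP sequence. In GENCODE release 29, 28 of 86 members (32.6%) hold a snoRNA gene within their body on the same strand, 60 in all, against 1.37% of 19936 protein coding genes. Many snoRNAs that modify rRNA are known to be made from introns of ribosomal protein genes. The 28 hosts had medians of 0.10 and 0.0043, and the 49 other core members 0.089 and -0.0080. Pseudogenes named after a member numbered 1145 in all and 8 per member at the median, and the sources used here do not give how the authors' counting shared reads with them.

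The rest of the translation machinery was read from lists. Over all tested genes, the shares against which each list's counts are to be read were 1.42% higher and 1.67% lower past the test, and 9.45% higher and 10.1% lower at an unadjusted p under 0.05. The medians of all tested genes were 0.027 with siRNA1 and 0.011 with siRNA2. Of the cytosolic ribosomal protein genes that the symbol rule leaves out, FAU read 516 FPKM in the control, 559 with siRNA1 and 531 with siRNA2, RPL36AL 398, 416 and 396, and RACK1 1004, 989 and 956. None of these 3 passed limma, also not at an unadjusted p under 0.05. Of 40 translation factors 1 rose and none fell, with medians of 0.055 with siRNA1 and 0.11 with siRNA2. At an unadjusted p under 0.05, 7 were higher, above the share of all tested genes, and 1 was lower, below that share. Neither difference was tested. The gene past the test, EIF3F, a subunit of initiation factor eIF3, went from 45.0 FPKM to 106.7 and 97.7 (adjusted p = 0.0227). EIF4B read 134 FPKM, 189.7 and 179.8, and EIF3C, whose level is uncertain because of its copy EIF3CL, 154, 111 and 84.6 FPKM. EIF5 read 93.2 FPKM, 76.8 and 74.9, and none of these 3 passed (adjusted p from 0.127 to 0.313).

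Among 52 ribosome biogenesis factors 1 rose and 2 fell, with medians of -0.085 and 0.053. At an unadjusted p under 0.05, 3 were higher, below the share of all tested genes, and 6 were lower, near that share. NPM1, the abundant nucleolar chaperone nucleophosmin, fell from 1427 FPKM to 732 with siRNA1 and 567 with siRNA2 (log2 fold change -1.15 ± 0.17, limma, adjusted p = 0.0304). The helicase DDX47 fell from 107 FPKM to 58.8 and 63.4 (adjusted p = 0.0458), but did not pass with a pseudocount of 0.1 (adjusted p = 0.0525). NOLC1, a nucleolar scaffold for box snoRNPs, rose from 29.3 FPKM to 72.7 and 101 (adjusted p = 0.0279). SBDS, which helps to release a factor from the large subunit, read 63.1 FPKM, 80.1 and 80.4 (adjusted p = 0.247). The log2 fold changes of the 3 called genes were 1.51, -1.15 and -0.80, beside 1.035 for RPL26L1, the called member, and 0.53 for RPL11. None of EIF3F, NPM1, NOLC1, DDX47 and MRPS34 passed with no filter on low FPKM or after quantile normalization, at adjusted p from 0.0562 to 0.323.

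Of 83 mitochondrial ribosomal protein genes 1 rose and none fell (5 and 1 at an unadjusted p under 0.05), against 1.42% and 1.67% of all tested genes past the test and 9.45% and 10.1% at the unadjusted threshold. Their medians were 0.084 with siRNA1 and 0.11 with siRNA2. MRPS34, a small subunit protein, rose from 50.3 FPKM to 99.5 and 106 (adjusted p = 0.0261), and MRPL22 read 7.76 FPKM, 12.1 and 13.2 (adjusted p = 0.115). Of those lower with both siRNAs, MRPS18A read 36.7 FPKM, 27.7 and 26.5 (adjusted p = 0.2002). Of 20 genes of RNA polymerase I and rDNA transcription none passed (1 higher and 0 lower at an unadjusted p under 0.05), with medians of -0.0035 and 0.086, and the rDNA factor UBTF read 28.3 FPKM, 37.1 and 40.6. Of 23 regulators of TOP mRNAs and S6 kinases none passed (2 and 2 at an unadjusted p under 0.05), with medians of -0.0091 and 0.0031. AKT1S1, an inhibitor of mTORC1, read 31.8 FPKM, 46.5 and 47.2. LARP1, which binds the TOP start, read 35.6 FPKM, 45.9 and 54.4, MTOR 16.1, 17.6 and 18.9, and the S6 kinase RPS6KB1 17.3, 8.87 and 12.5, while MYC, a known activator of ribosomal protein genes, read 69.5, 26.8 and 47.8. Of 15 genes of ribosome quality control and stress sensing none passed (0 and 1 at an unadjusted p under 0.05), with medians of -0.092 and -0.010, and MDM2 read 12.1 FPKM, 8.52 and 9.35 and the kinase ZAK, which senses stalled ribosomes, 19.1, 12.3 and 10.98.

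In the authors' deposited table, 74 of 84 members with a value had a q-value under 0.05 with siRNA1, where 63.8% of all genes did, and 56 of 84 with siRNA2, where 58.3% did. Those q-values carry the name DEGseq in the header, and so compare the libraries, not the conditions. For RPL11 the authors' deposited table gives log2 fold changes of 0.61 and 0.45, and for RPL26L1 1.18 and 0.95.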

How the data were processed

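Total RNA of 3 samples was sequenced. The deposited table gives FPKM per replicate column and their mean per sample, per the file headers, and the authors' log2 fold changes and DEGseq q-values. Per the submitters' processing notes, RSEM 1.2.12, Bowtie2 2.2.5 and HISAT2 2.0.4 were used with hg19, and DESeq is listed as version 3.4, all without roles. The sources used here do not give the strand setting or the transcript length used for scaling.

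Of 19280 lines, 14 had no gene ID and 2047 had no value in any sample. All 86 members matched RefSeq gene IDs, and 69 have an entry in its promoter table. 2 columns with the same heading were not used, so column 1 of a siRNA sample is 2 times its mean minus column 2. Depth was estimated from steps in low values of genes with a single transcript of at most 1500 bases (85.4% to 89.1% within 0.2 reads of a whole number).

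Control (1 sample) was compared with siDLX5 (2 samples) on log2(FPKM + 1) with limma 3.58.1 (R 4.3.3, trended prior), a scale that understates changes of low genes, for 12078 genes of at least 1 FPKM in a sample. Its p-values rest on how far the 2 siRNA samples lie apart, joined with a prior spread taken over all genes. The first has 1 residual degree of freedom per gene and the prior 5.158. The distance between the siRNA samples may be technical or may differ by siRNA, and the control gives no spread of its own. On simulated data (200 changed of 12078 genes, 20 runs) 60.5% of changes of 1 and 98.8% of changes of 2 on the log2 scale were found, with 12% false calls, over the nominal 5%. Named members are those past the test, per subunit the 5 of highest mean FPKM and the 5 with the largest change of the same sign in each direction, those not tested, paralogs with their partners, stalk genes, MDM2 binders, RPS6, RPSA, RPS19 and RPS27A. From each list they are called genes, the 2 largest changes in each direction or some of these, and MYC, MTOR and LARP1. RPL13, RPL15, RPL27A, RPS20, RPS23, RPS24, RPS25 and the members past a fold of 1.2 were added after their values were seen. A few genes that the rule names are not reported here. Members and lists were chosen with earlier results of these data known. Alternatives were the pseudocount, filters, scaling, threshold, replicate columns and leaving out each siRNA sample.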

Additional observations from a re-analysis of the deposited data

How the results depend on the processing

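No paired analysis was possible, because there is 1 control sample and no label pairs it with a siRNA sample. Of 102 alternative values of the main results 69 stayed within their limits. Without the filter on low FPKM 0 genes were higher and 0 lower, members and list genes included. After quantile normalization 12 were higher and 10 lower, with 0 members and 0 list genes. Under a filter on mean FPKM (5 or more) 133 were lower. At an adjusted p under 0.10, 365 genes were higher and 468 lower, with 2 members higher, RPL26L1 and RPL11. With a pseudocount of 0.1, 1 list gene was lower. With the replicate columns as separate values 2638 of 12078 genes were higher and 2247 lower with each siRNA against the shared control. Among them were 55 and 33 list genes. Of 82 members 12 were higher (14.6%) and 3 lower (3.66%), smaller shares than those of all tested genes. These 3 lower members are RPL29, RPL10A and RPL14. Large minus small subunit stayed negative in every setting run, each against the same single control. With siRNA1 it was -0.032 without the filter, -0.047 after quantile normalization, and -0.047 both without paralogs and at 100 FPKM or more. With siRNA2 it was -0.045 after quantile normalization and -0.039 in the other 2. For the mean of both it was -0.043, -0.049 and -0.045 in that order, and from -0.038 to -0.033 leaving out each siRNA sample. Counts could not be made with 1 siRNA sample, as no degree of freedom is left. The median of all members, leaving out each siRNA sample, went from -0.0040 to 0.095. Depth limits the 4 untested members, which rest on few reads, and not the core.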
